A study of Mus musculus with 6 samples.

Results

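Centriole amplification and basal body genes were followed here as a set of 10 genes in laser captures of the postnatal mouse brain. The captures covered the ependymal layer, the epithelium whose motile cilia line the ventricles. They also carried markers of other cell types, so the values are not those of ependymal cells alone. The members are Deup1, Plk4, Cep152, Cep63, Sass6, Stil, Cetn2, Pcm1, Cep164 and Nek2. They were taken by gene symbol from a fixed list of centriole and basal body genes. All 10 were measured, among 19938 genes with 1 named gene per probe set on Affymetrix whole-transcript arrays. Cep63 and Cep164 had 2 probe sets each and the brighter one was used.

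The 6 arrays covered FoxJ1 null brains at postnatal days 1, 7 and 14 and wildtype brains at postnatal days 1, 7 and 14, with 1 array for each genotype and age. Both genotypes carried FoxJ1-EGFP, a fluorescent reporter of Foxj1 activity, and the EGFP-positive domains were cut out by laser capture. The null allele is not described in the labels, and they do not say how many animals a capture drew on. A p-value here reflects only how these captures scatter, which may be partly technical, and so few arrays limit the precision. With 1 array per genotype and age, that scatter also holds any genotype difference that changes with age. The 2 genotypes can be compared over 3 ages and the ages over 2 genotypes, while a single age has no replicate.

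Ciliated ependymal cells carry many motile cilia, and each cilium grows from a basal body, a centriole docked at the cell surface. A dividing cell makes a single new centriole beside each old one, under the kinase Plk4. A cell that becomes multiciliated makes many at once, partly beside its own centrioles and partly on deuterosomes, ring-like structures built on the protein Deup1. Foxj1, a forkhead transcription factor, is known for switching on the genes of the motile axoneme and for the docking of basal bodies, and in the textbook scheme centriole amplification is driven by other regulators.

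The arrays themselves were examined before the members. Foxj1 measured 6.89, 6.95 and 6.90 in FoxJ1 null captures at days 1, 7 and 14, against 7.68, 7.72 and 7.24 in wildtype captures. Its difference missed the threshold (limma adjusted p = 0.0573). The series title names male mice, but Xist, the X-inactivation transcript, read 12.35 on the null day 7 array and 12.40 on the wildtype day 1 array, while its level on the other 4 lay between 5.37 and 5.83. Eif2s3y, a Y-linked gene, read 4.61 on the null day 7 array and 4.53 on the wildtype day 1 array. On the other 4 it lay between 10.33 and 10.72. The Y-linked genes Kdm5d and Uty were low on the same 2 arrays. By these genes the 2 arrays read as female, so the genotype pairs at days 1 and 7 differ in sex. The genotype and day 14 against day 1 results were also fitted without these 2 arrays, with age linear. For the members the values are given where the call or the direction changed.

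Markers of the ependymal layer were lower in the null. The mean log2 level of 18 ependymal markers, Foxj1, Vim, Cd24a, S100b and ciliary genes among them, lay between 7.42 and 7.58 on the null arrays and between 8.34 and 8.43 on the wildtype arrays. Of these 18 genes, 10 were called lower in the null, and Foxj1 and Cd24a were not among them. The list includes ciliary genes, a class that Foxj1 is known to switch on, so the count is not a measure of the layer itself. Of 15 choroid plexus markers 4 were called lower in the null. The part of these shifts in any genotype difference below was not tested. Deposited log2 levels have no 0, so absence of a marker cannot be read from them.

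The loss of Foxj1 was not accompanied by a detectable change in any of the 10 genes. With limma, age as a block and Benjamini-Hochberg adjustment over all genes, 0 of 10 members passed in either direction, and 0 had an unadjusted p under 0.05. Over all genes 0.672% were called, 0.00502% higher and 0.667% lower in the null, so a count of 0 among 10 is near the background. The median difference of the members, FoxJ1 null minus wildtype, was -0.03, and that of all genes was -0.01. Differences are given on the log2 scale, and an SD beside a genotype difference is taken over the 3 ages.

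Deup1, the scaffold of the deuterosome, was the member on which the arrays disagreed most. It measured 7.15, 7.70 and 6.80 in FoxJ1 null captures at days 1, 7 and 14, against 7.97, 7.48 and 6.70 in wildtype captures. The null array was lower by 0.82 at day 1 and higher at days 7 and 14, by 0.22 and 0.09. The mean difference was -0.17 ± 0.57 (SD, n = 3 pairs), with a 95% interval from -0.57 to 0.24. The highest Deup1 levels were on the wildtype day 1 and null day 7 arrays, which were also the pair with high Xist. The genotype difference was -0.18 with Xist as a covariate (limma adjusted p = 0.79) and -0.26 without that pair and with age linear (adjusted p = 0.989).

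Cep63 is the paralog of Deup1 that works at the parent centriole, where it recruits Cep152, and neither gene differed detectably by genotype. Cep63 measured 9.06, 8.82 and 8.80 in FoxJ1 null captures at days 1, 7 and 14, against 8.72, 8.69 and 8.90 in wildtype captures, a mean difference of 0.12 ± 0.22. Its second probe set gave -0.08 ± 0.11, of the opposite sign. Cep152, which holds Plk4 at the site of assembly, differed by -0.03 ± 0.17, with levels from 7.53 to 7.78 on the null arrays and from 7.45 to 7.999 on the wildtype arrays. In the fit that omits both high-Xist arrays the Cep152 value turned to 0.14. The groups overlapped for both genes.

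The kinase and the cartwheel proteins that start a new centriole had no genotype call either. Plk4 measured 7.49, 7.77 and 6.73 in FoxJ1 null captures at days 1, 7 and 14, against 7.49, 7.25 and 6.67 in wildtype captures. The null day 7 array stood 0.51 above its wildtype partner, while the differences at days 1 and 14 were near 0. The mean was 0.19 ± 0.28, with an interval from -0.09 to 0.47. Without the null day 7 and wildtype day 1 arrays, and with age linear, the value turned to -0.0459. Stil, which Plk4 phosphorylates, and Sass6, which forms the cartwheel hub, lay closer to 0, at -0.04 ± 0.10 and 0.04 ± 0.08. Without the 2 high-Xist arrays these were -0.079 for Stil and -0.0663 for Sass6, and neither was called.

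The genes of the finished basal body came nearest to a genotype difference. Cetn2, a calcium-binding centrin of the centriole lumen encoded on chromosome X, measured 8.72, 8.96 and 8.92 in FoxJ1 null captures at days 1, 7 and 14, against 9.03, 9.19 and 9.001 in wildtype captures. Cep164, a distal appendage protein needed for docking to the membrane, measured 7.89, 7.80 and 7.65 in FoxJ1 null captures, against 8.11, 7.96 and 7.85 in wildtype captures. Both were lower in the null array at each of the 3 ages, as were 15.9% of all genes. The mean differences were -0.21 ± 0.11 for Cetn2 (interval -0.44 to 0.02, limma adjusted p = 0.918) and -0.19 ± 0.04 for Cep164 (interval -0.41 to 0.03, adjusted p = 0.944). The second probe set of Cep164 gave -0.18 ± 0.12.

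Nek2, a kinase that loosens the link between centrosomes before mitosis, was the member higher in the null array at each age, as were 7.9% of all genes, with a mean difference of 0.12 ± 0.08. Pcm1, the scaffold of the centriolar satellites that carry centriole proteins, differed by -0.03 ± 0.08, and by -0.19 without the 2 high-Xist arrays. Nek2 had 0.0404 without them. Neither passed in either fit. Across the 10 members the intervals reached no lower than -0.57 and no higher than 0.47.

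**Figure D1:**
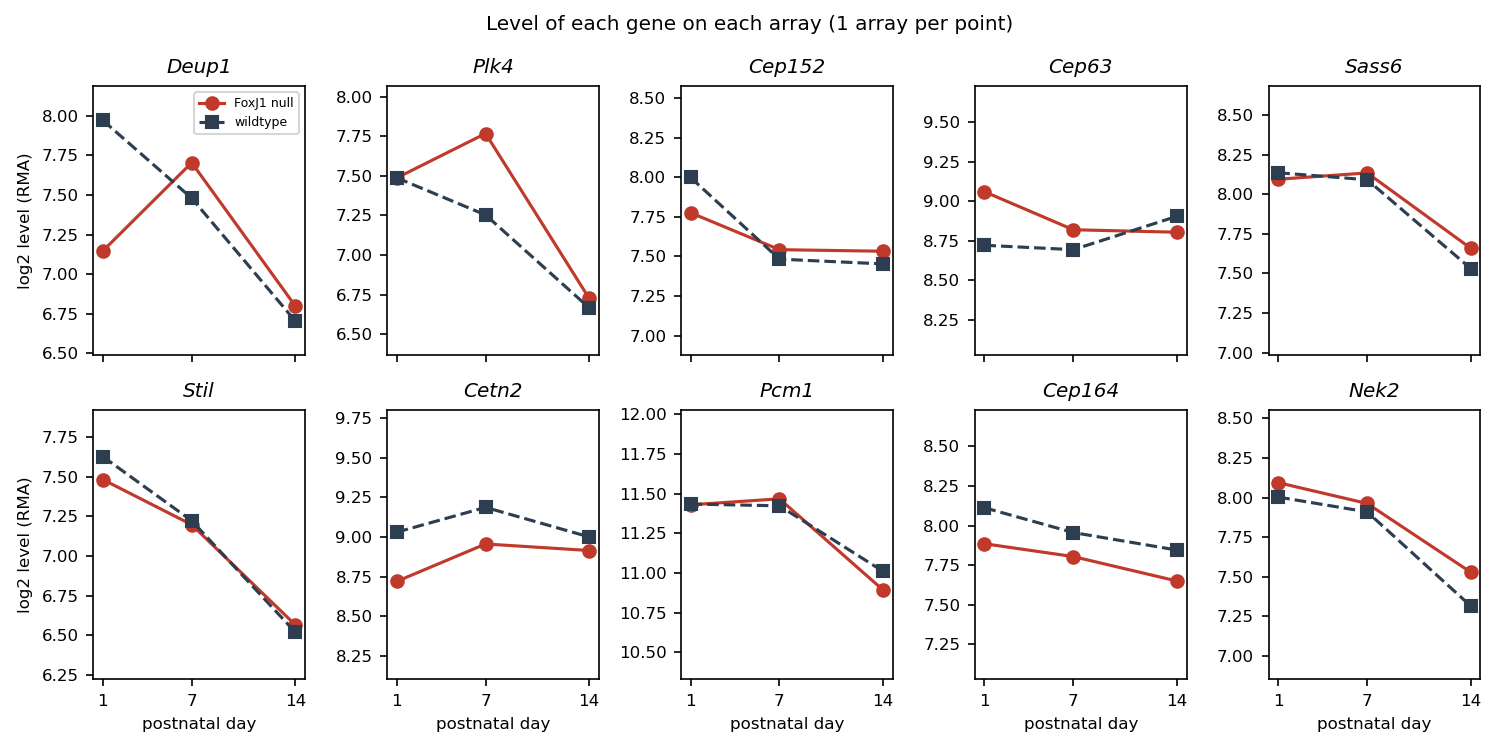
Log2 level (vertical axis, the same span in every panel but not the same start) against postnatal day for the 10 genes, with 1 array per point, FoxJ1 null as red circles and wildtype as dark squares. For Deup1, Plk4, Sass6, Stil, Pcm1 and Nek2 both day 14 arrays lie below every earlier array of either genotype. Cetn2 and Cep164 run lower in the null at all 3 ages.

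Age, unlike genotype, separated the members. Between day 1 and day 14, 6 of the 10 fell in the captures, by 1.40-fold to 2.02-fold, and 0 rose. The 6 were Stil, Deup1, Plk4, Nek2, Sass6 and Pcm1. Over all genes 6.29% were called lower at day 14, 7.5% higher and 13.8% in either direction. The median difference of the 10 members, day 14 minus day 1, was -0.50 against -0.01 over all genes. Because a bulk capture was measured, fewer cells of a type and less RNA per cell cannot be told apart in these differences.

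Stil had the largest decrease of the 10. It measured 7.48, 7.20 and 6.56 in FoxJ1 null captures at days 1, 7 and 14, against 7.63, 7.22 and 6.52 in wildtype captures. The levels stepped down at each age in both genotypes, and both day 14 arrays lay 0.63 or more below the other 4. The difference between days 14 and 1 was -1.01 ± 0.12 (SE), or 2.02-fold, with limma adjusted p = 0.00101. It was called in all 15 alternative settings in which it was tested.

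Plk4 and Deup1 followed, with a different course. Plk4 was 1.73-fold lower at day 14 than at day 1 (-0.79 ± 0.15, SE, limma adjusted p = 0.00849), and it was 1.76-fold lower at day 14 than at day 7 (-0.81 ± 0.15, adjusted p = 0.0187). The 4 arrays of days 1 and 7 lay between 7.25 and 7.77, and both day 14 arrays were below 7.25, at 6.73 in the null and 6.67 in the wildtype. Between days 1 and 7 its difference was 0.02, with a 95% interval from -0.32 to 0.36.

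Deup1 was 1.75-fold lower at day 14 than at day 1 (-0.81 ± 0.22, SE, limma adjusted p = 0.0395). Its 2 day 14 arrays were below the other 4 by at least 0.35. The 2 genotypes contributed unequally, with a change of -0.35 in the null and of -1.27 in the wildtype between days 1 and 14. The call did not hold without the wildtype day 1 array (-0.32, adjusted p = 0.257), with Xist as a covariate (-0.56, adjusted p = 0.052), or without the null day 7 and wildtype day 1 arrays and with age linear (-0.59, adjusted p = 0.151). The direction was the same in all 16 alternative settings, and the call held in 9 of them.

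Sass6 and Pcm1 shared a plateau followed by a drop. Sass6 measured 8.09, 8.13 and 7.66 in FoxJ1 null captures at days 1, 7 and 14, against 8.14, 8.09 and 7.53 in wildtype captures. Pcm1 measured 11.43, 11.47 and 10.89 in FoxJ1 null captures, against 11.43, 11.42 and 11.01 in wildtype captures. For each gene the 4 arrays of days 1 and 7 spanned only 0.04, and both day 14 arrays lay at least 0.41 below them. Sass6 was 1.43-fold lower at day 14 than at day 1 (-0.52 ± 0.12, SE, adjusted p = 0.0218) and Pcm1 was 1.40-fold lower (-0.48 ± 0.12, adjusted p = 0.0304).

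Nek2 measured 8.09, 7.96 and 7.53 in FoxJ1 null captures at days 1, 7 and 14, against 8.003, 7.91 and 7.32 in wildtype captures. Both genotypes were lowest at day 14, by 0.38 or more. The difference between days 14 and 1 was -0.63 ± 0.12 (SE), or 1.54-fold, with limma adjusted p = 0.00974. All 6 called members had both day 14 arrays below the 4 earlier ones, a pattern that 16.3% of all genes showed.

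The remaining members did not pass. Cep152 measured 7.78, 7.54 and 7.53 in FoxJ1 null captures at days 1, 7 and 14, against 7.999, 7.48 and 7.45 in wildtype captures. Its larger step lay between days 1 and 7 (-0.37 ± 0.13, SE, limma adjusted p = 0.385), which was not called, and not after day 7 (-0.02 ± 0.13). That step was -0.52 in the wildtype and -0.23 in the null. Stil, among the 6, had -0.34 over the same days. From day 1 to day 14 the Cep152 value was -0.39 (adjusted p = 0.0817). Centring each array on its median brought it past the threshold (adjusted p = 0.0494). Cep164 had -0.25 (adjusted p = 0.221), and its second probe set -0.07.

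Cep63 and Cetn2 stood near 0 over the same interval. For Cep63 the difference between days 14 and 1 was -0.04, with a 95% interval from -0.35 to 0.28, and for Cetn2 it was 0.08, with an interval from -0.20 to 0.36. The 2 genotypes went opposite ways for both genes. Between days 1 and 14 Cep63 changed by -0.26 in the null and 0.18 in the wildtype, and Cetn2 by 0.19 in the null and -0.03 in the wildtype. The other 8 members were lower at day 14 than at day 1 in both genotypes, as were 36.1% of all genes.

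**Figure D2:**
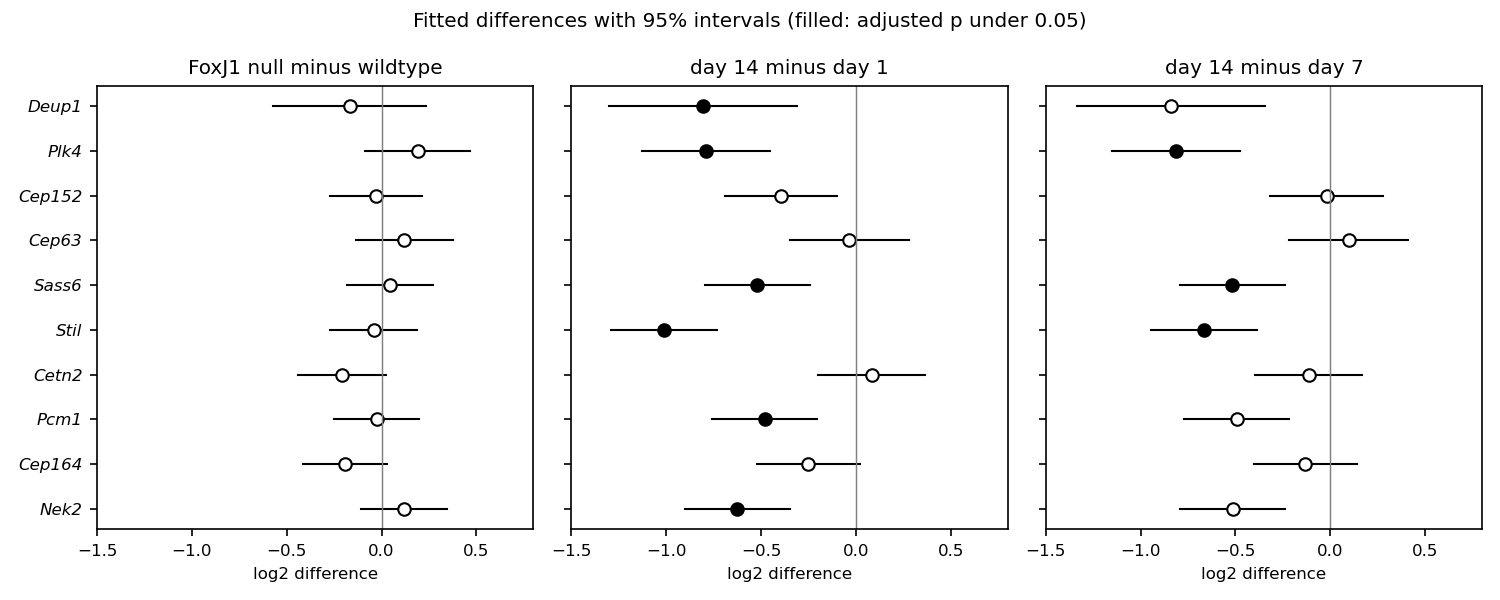
Fitted log2 differences of the 10 genes (points) with 95% intervals (lines) for FoxJ1 null minus wildtype, day 14 minus day 1 and day 14 minus day 7, with points filled where the adjusted p was under 0.05. No point is filled for genotype, 6 are filled for day 14 against day 1 and 3 for day 14 against day 7.

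For each of the 6 members that fell, the larger step lay between days 7 and 14. Between days 14 and 7, 3 members passed, namely Plk4, Stil (-0.67 ± 0.12, SE, limma adjusted p = 0.019) and Sass6 (-0.52 ± 0.12, adjusted p = 0.0492), against 1.87% of all genes called lower, 2.34% higher and 4.21% in either direction. Nek2 (-0.51, adjusted p = 0.0506), Pcm1 (-0.49, adjusted p = 0.0583) and Deup1 (-0.84, adjusted p = 0.0698) missed the threshold. These 3 passed when each array was centred on its own median, which gave 6 calls. Without either day 1 array 6 members passed, without the wildtype day 7 array 2, without the null day 7 array 0 by limma, and without the null or the wildtype day 14 array 1 passed in each case. Between days 7 and 1, 0 of 10 passed by limma and 2 had an unadjusted p under 0.05, Cep152 and Stil, with 0.0602% of all genes called, 0.0552% higher and 0.00502% lower.

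The count for day 14 against day 1 depended on single arrays. It was 3 without the wildtype day 1 array, 3 without the null day 14 array and 2 without the wildtype day 14 array, and 5 or 6 without any other single array. Without the null day 7 and wildtype day 1 arrays, and with age linear, 2 members passed, Plk4 (-0.83, limma adjusted p = 0.0226) and Stil (-1.005, adjusted p = 0.0137). In that fit Nek2 had -0.69 (limma adjusted p = 0.0509), Pcm1 -0.59 (adjusted p = 0.0589) and Sass6 -0.57 (adjusted p = 0.0912). The fit scales a slope per day to the span from day 1 to day 14, so a drop confined to days 7 to 14 is stretched. Sizes from it therefore cannot be set against those with all arrays.

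Whether the age course itself differed between genotypes was tested with the product of genotype and postnatal day. By limma 0 of 10 members passed, 0 had an unadjusted p under 0.05, and 0% of all genes were called, with 596 of 19938 at an unadjusted p under 0.05. Deup1 was farthest from 0, at 0.07 ± 0.04 log2 units per day (SE), FoxJ1 null minus wildtype, with an interval from -0.01 to 0.15. At day 7 it had moved by 0.56 from day 1 in the null and by -0.49 in the wildtype. Plk4 had moved by 0.28 in the null and by -0.23 in the wildtype. No replicate stands behind these single-array changes.

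Genes of cell division moved with age alongside the members. Of 29 measured proliferation markers, 28 fell between days 1 and 14, with a median of -0.95, and Ccne2 did not pass (-0.25, adjusted p = 0.245). Mki67 measured 9.42, 9.32 and 8.02 in FoxJ1 null captures at days 1, 7 and 14, against 9.86, 9.41 and 8.11 in wildtype captures. The mean level of the list was 8.32, 8.31 and 7.58 in FoxJ1 null captures at days 1, 7 and 14, against 8.74, 8.36 and 7.57 in wildtype captures. Between the genotypes 0 of the 29 passed by limma and 2 had an unadjusted p under 0.05. The value, FoxJ1 null minus wildtype, was negative for 27 and positive for 2. Its median was -0.15, against -0.01 over all genes. The difference in slope per day was positive for 27 and negative for 2, with 0 called. These shared directions were not tested. The part of proliferating cells in the members' decline was not tested.

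Markers of other cell types were high in the captures. Median level percentiles over all genes were 97.5 for neuroblast, 91.3 for astrocyte, 89.8 for neuron and 41.1 for ependymal markers. They rank the mean over the arrays of both genotypes, and the mean level of the ependymal markers was lower on every null array. Such ranks are not shares of cells. The makeup of the captures also changed with age. Neuroblast markers were lower at day 14 (10 of 15 called lower, 1 higher), and so were 4 of 11 radial glia and stem cell markers. Markers of astrocytes (11 of 13 called higher, 1 lower), oligodendrocytes (10 of 14 called higher), neurons (8 of 11) and microglia (8 of 13) were higher. Of the 18 ependymal markers, 3 were called higher and 1 lower at day 14. Their part in the members' decline was not tested.

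By the measure of likeness used here, the distance between centred profiles over the 6 arrays, the genes nearest to Deup1 and Stil included known genes of DNA replication and chromosome handling. The measure was taken for the members whose levels spanned at least 1 log2 unit, Deup1, Plk4 and Stil. Nearest to Deup1 were Parpbp, a regulator of homologous recombination, at a distance of 0.12, Smc4, a condensin subunit, at 0.18, and Hells, a chromatin remodeller, at 0.19. Nearest to Stil were Dtl, a replication-licensing ubiquitin ligase adaptor, at 0.09, Tead2, a transcription factor of the Hippo pathway, at 0.10, and Pole, a replicative DNA polymerase, at 0.14.

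Nearest to Plk4 were Scml2, a Polycomb protein, at 0.20, Cdh12, a cadherin, at 0.22, and Marchf1, a membrane ubiquitin ligase, at 0.27. The members were farther from each other than from these genes. Plk4 stood 197th among all genes in order of distance from Deup1 (0.62), and Cep63, the paralog of Deup1, stood 14025th (1.30). The points share 6 arrays, and with so few many genes lie close by, so the order is a description.

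**Figure D3:**
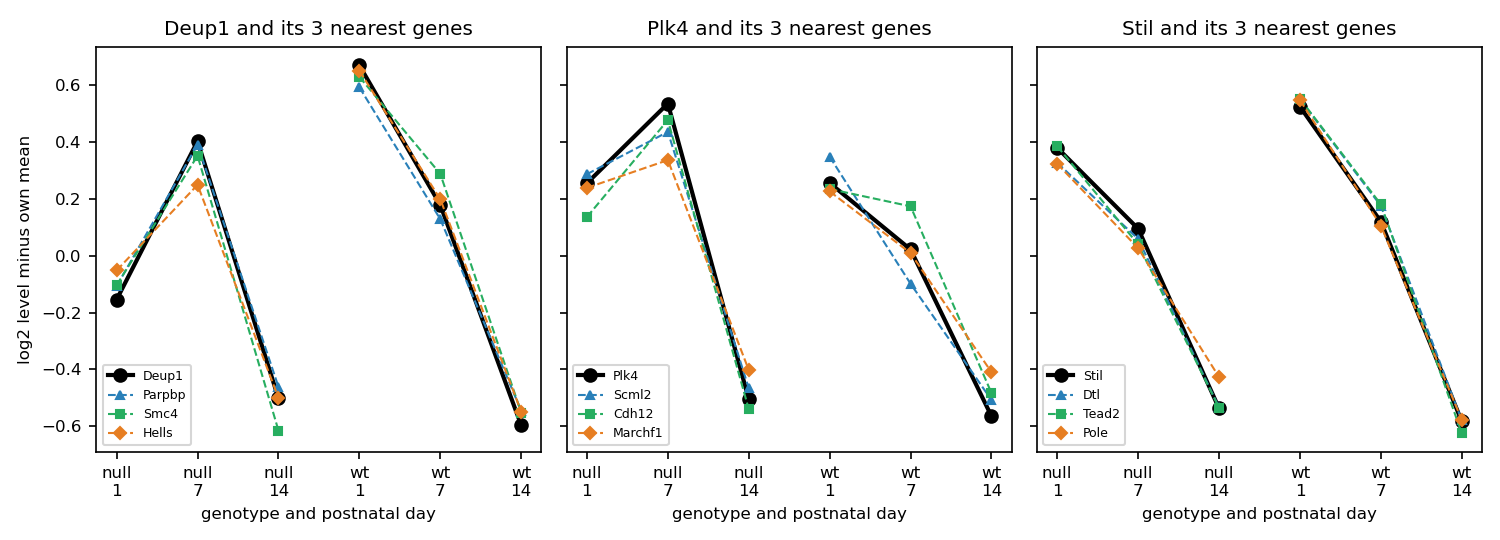
Log2 level minus the gene's own mean over the 6 arrays (vertical axis) by genotype and postnatal day, for Deup1, Plk4 and Stil in black and the 3 genes nearest to each in colour. Deup1 and its neighbours are high on the null day 7 and wildtype day 1 arrays, and all 12 profiles are lowest at day 14.

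Promoter windows are shown for 5 of the 6 members that fell, because these genes were all lower at day 14. No window for Pcm1 was used here. RefSeq (GRCm38.p6) gave windows of 300 bases, 250 before and 50 after the annotated start, for 9 of the 10 members, with 2 windows for Deup1. Capitals mark matches on either strand to TTTGAA or TTCGAA (the cell cycle genes homology region, CHR), TTCCCGCC or TTTGGCGC (E2F), CCAAT (the NF-Y box) and GTTGCC (1 arm of the RFX X-box, called the X-box arm here). Matches did not overlap in the windows printed. Positions are those of the build named, which need not be the one behind the arrays.
Deup1, chr9:15627797-15628096, minus strand: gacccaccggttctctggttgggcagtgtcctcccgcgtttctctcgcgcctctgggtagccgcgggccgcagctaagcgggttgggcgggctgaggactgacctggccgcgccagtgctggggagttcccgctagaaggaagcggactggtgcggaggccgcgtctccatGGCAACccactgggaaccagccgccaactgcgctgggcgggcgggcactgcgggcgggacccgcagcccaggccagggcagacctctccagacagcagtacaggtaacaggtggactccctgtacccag
Plk4, chr3:40799701-40800000, plus strand: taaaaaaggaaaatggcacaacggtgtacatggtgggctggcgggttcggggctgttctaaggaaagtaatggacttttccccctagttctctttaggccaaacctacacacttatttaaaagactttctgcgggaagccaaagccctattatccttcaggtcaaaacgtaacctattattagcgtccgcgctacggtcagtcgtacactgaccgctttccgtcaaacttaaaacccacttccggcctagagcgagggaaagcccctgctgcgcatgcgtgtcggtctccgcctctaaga
Sass6, chr3:116594708-116595007, plus strand: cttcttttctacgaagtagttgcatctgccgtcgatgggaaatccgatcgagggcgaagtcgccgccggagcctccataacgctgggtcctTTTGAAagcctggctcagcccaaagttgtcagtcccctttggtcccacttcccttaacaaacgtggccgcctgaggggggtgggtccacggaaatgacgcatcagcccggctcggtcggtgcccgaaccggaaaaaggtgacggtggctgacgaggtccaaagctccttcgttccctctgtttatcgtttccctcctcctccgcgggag
Stil, chr4:114999868-115000167, plus strand: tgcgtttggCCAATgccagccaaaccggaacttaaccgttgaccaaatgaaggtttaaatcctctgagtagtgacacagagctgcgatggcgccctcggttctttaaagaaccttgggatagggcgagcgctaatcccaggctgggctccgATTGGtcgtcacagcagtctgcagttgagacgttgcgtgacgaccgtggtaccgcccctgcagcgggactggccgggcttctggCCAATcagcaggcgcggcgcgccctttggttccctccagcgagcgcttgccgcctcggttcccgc
Nek2, chr1:191821223-191821522, plus strand: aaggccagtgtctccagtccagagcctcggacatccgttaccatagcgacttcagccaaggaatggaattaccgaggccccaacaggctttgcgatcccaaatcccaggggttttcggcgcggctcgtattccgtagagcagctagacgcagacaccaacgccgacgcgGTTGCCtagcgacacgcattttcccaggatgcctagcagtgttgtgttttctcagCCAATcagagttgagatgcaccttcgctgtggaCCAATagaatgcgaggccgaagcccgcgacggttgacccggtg

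These 5 windows held different motifs. Sass6 had 1 CHR match, Stil 3 CCAAT matches, Nek2 2 CCAAT matches and 1 X-box arm, Deup1 1 X-box arm in the window shown, and Plk4 none of the 4 motifs. Among the 9 members with a window, a CHR match was found in 3 genes, an E2F match in 1, a CCAAT match in 6 and an X-box arm in 4. A gene counted if any of its windows matched, and Deup1 had its CCAAT match in the window not shown. The shares that follow are of single windows. Of 32817 RefSeq windows of the same length, 19.2% held a CHR match, 2.67% an E2F match, 37.4% a CCAAT match and 12.5% an X-box arm. The E2F match was in Cep152, and Cetn2 and Cep164, which did not pass with age, held both CCAAT and X-box letters. These are letter matches, with no measure of binding.

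Other centriole, basal body and multiciliation genes were read from 5 lists holding 115 measured genes that are not members. Between genotypes 0 of 115 passed by limma, 9 had an unadjusted p under 0.05, and the median was -0.05. Foxj1 had the most negative value, and Tmem107, a transition zone protein, had -0.55 (adjusted p = 0.112), followed by Cep128, a subdistal appendage protein, with -0.46 (adjusted p = 0.271). Ofd1, a satellite and distal centriole protein, had 0.31 (adjusted p = 0.674). Between days 14 and 1, 17 of 115 fell and 0 were called higher, with a median of -0.13. Over all genes 6.29% were called lower and 7.5% higher. In the fit that omits both high-Xist arrays 8 were called lower, all among the 17, namely Cenpj, Poc1b, Aspm, Haus6, Ccdc120, Cep170, Tpx2 and Cep55. The rest of the 17 lost their call in it, namely Cep192, Cdk5rap2, Cdk2, Cep72, Ninl, Cep128, Plk1, Aurka and Cep78. In that fit 3 were called higher, Spice1 (0.79), Gmnc (0.87) and Lrrc45 (0.76). With Xist as a covariate 14 were called lower and 4 higher, the same 3 and Sdccag8 (0.61). Without the wildtype day 1 array 13 were called lower and 7 higher. Without either day 7 array 19 were called lower and 4 higher, Bcl6, Sdccag8, Lrrc45 and Nek7. No share over all genes is given for these alternative fits, so their counts have no background beside them. Genes named here for a change of call were chosen after the values were seen.

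Centriole duplication genes besides the members fell in part. Of 29, 5 were lower at day 14 than at day 1 and 24 did not pass, with a list median of -0.19. That is 17.2% of the list called lower, against 6.29% of all genes. Aspm, a spindle pole protein, was lower by 2.43-fold (-1.28, limma adjusted p = 5.53e-04), Poc1b, a centriole wall protein, by 1.84-fold (-0.88), and Cenpj, which sets centriole length with tubulin, by 1.71-fold (-0.77). Cep192, which recruits Plk4 together with Cep152, was lower by 1.47-fold (-0.56, adjusted p = 0.0253). Between days 14 and 7, Aspm (-0.92) and Cenpj (-0.63) were called, 6.9% of the list against 1.87% of all genes called lower.

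Regulators of the multiciliated fate held 1 call between days 14 and 1. It made 5.26% of the list called lower, against 6.29% of all genes, so the count is near the background. Of 19, Cdk2 was lower at day 14 (-0.61, limma adjusted p = 0.0253), and it is a cyclin-dependent kinase that is also active in S phase. Bcl6, a transcriptional repressor, was called higher at day 14 than at day 7 (0.80, adjusted p = 0.0207), as were 2.34% of all genes. The list median for day 14 minus day 1 was -0.18, and 18 genes did not pass. Gmnc and Mcidas, which start the multiciliation program, had 0.48 (adjusted p = 0.257) and -0.28 (adjusted p = 0.191), and Ccno, a cyclin-like protein needed for centriole amplification, had -0.41 (adjusted p = 0.0569). These 3 were named for their role after the values were seen. Ccno was called lower with quantile normalization (-0.43, limma adjusted p = 0.0449) and with arrays centred (-0.45, adjusted p = 0.0357). It was also called with a prior that followed intensity (adjusted p = 0.048) and without genotype in the fit (adjusted p = 0.0444). Cdk2 was not called with Xist as a covariate, without both high-Xist arrays or without the wildtype day 1 array. Gmnc was called higher at day 14 with Xist as a covariate (0.80, limma adjusted p = 0.00971), when both high-Xist arrays were omitted (0.87, adjusted p = 0.029) and without the wildtype day 1 array (0.93, adjusted p = 0.0116).

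Among 15 centriolar satellite genes 2 were lower at day 14 than at day 1, Haus6, an augmin subunit, by 1.77-fold (-0.82) and Cep72 by 1.71-fold (-0.77), with a list median of 0.08. Among 36 genes of the appendages and of docking 4 were lower, Cep170 (-0.75), Ccdc120 (-0.69), Cep128 (-0.55) and Ninl (-0.51), all proteins of the subdistal appendage or of microtubule anchoring, with a list median of -0.05. The share called lower was 13.3% for the satellites and 11.1% for the appendage and docking list, against 6.29% of all genes.

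Of 16 genes of centrosome cohesion and mitotic centrosome kinases, which work with Nek2, 5 were lower at day 14 than at day 1. They included Tpx2 (-1.14), Cep55 (-0.85), Plk1 (-0.85) and Aurka (-0.59), genes of the spindle and of cell abscission, and the list median was -0.22. Of this list 31.25% were called lower, against 6.29% of all genes. Tpx2, Plk1 and Aurka are also in the proliferation list. The linker proteins that Nek2 acts on, Crocc (-0.13, limma adjusted p = 0.567) and Cep250 (-0.04, adjusted p = 0.914), did not pass, and they were looked at after the values were seen.

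**Figure D4:**
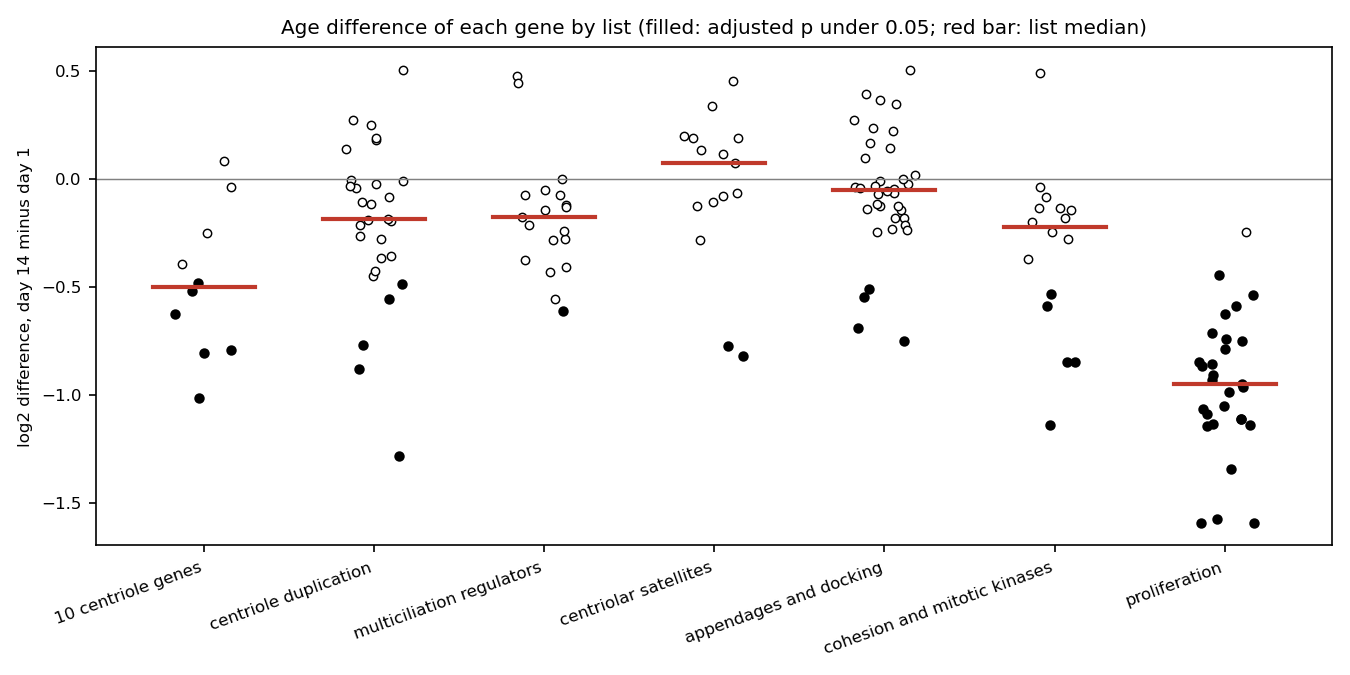
Log2 difference, day 14 minus day 1, of each gene (points, filled where the adjusted p was under 0.05) for the 10 genes, 5 related lists and proliferation markers, with list medians as red bars. The medians are -0.50 for the 10 genes, -0.95 for the proliferation markers and between -0.22 and 0.08 for the other lists.

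The authors' deposited table of 52 selected probe sets held 0 probe sets of the 10 members.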

How the data were processed

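What the authors deposited for all 35557 probe sets are log2 levels in 6 columns, and RMA is the method in the submitters' processing notes, without a version. For the genome build, nothing is given in these sources. A second deposited table holds linear intensity for 52 probe sets the authors selected, and served only to look up members. Per the labels' protocols, RNA was extracted with Trizol after laser capture, then amplified and labelled.

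Of the probe sets, 21789 had 1 gene symbol, 1621 several and 12147 none. The RefSeq table of GRCm38.p6 held 21698 by Entrez id and changed 0 symbols. Taking the brightest probe set per gene left 19938 genes. No filter or renormalization was applied, since the ranked values of the arrays already agreed to a median of 0.0216.

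Tests used R 4.3.3 and limma 3.58.1 (lmFit, eBayes), 2-sided, with Benjamini-Hochberg adjustment over all genes and a threshold of 0.05. Genotype and the 3 ages, as categories, entered 1 model, with 2 residual and 7.51 prior degrees of freedom. Slopes used genotype, day and their product. Intervals are 95% from the moderated fit. The code was tested on simulated data. Figures were made with Python 3.11.15 and matplotlib 3.10.9.

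The 10 members were all named, with up to 4 called genes per related list, direction and comparison, or the 2 with the largest difference where none was called. The members and lists were chosen with earlier results of these data known. Alternatives were a further quantile normalization, median centring, filters on dim genes, single or averaged probe sets, a prior that was robust or followed intensity, Xist as a covariate, age as linear, as log2 or dropped, a fit without genotype, and fits with arrays removed.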

Additional observations from a re-analysis of the deposited data

How the results depend on the processing

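With 1 array per genotype and age, a fit without 1 array leaves 1 residual degree of freedom and assumes that the lone array of an age varies like the others. No member was called between genotypes, between days 7 and 1 or for slopes under any alternative run, and a fit with no replicate block (age left out, so that the genotypes were not paired by age) also called 0 members and 0 related genes. For day 14 minus day 1 the 6 calls became 1 without genes below the median level, a filter that keeps only 3 members in the test, and 2 without the wildtype day 1 and FoxJ1 null day 7 arrays, where 11 related genes were called, 8 lower and 3 higher, in place of 17 lower. Leaving out single arrays gave 2 to 6 members and 12 to 23 related genes, of which 0 to 7 were higher. Other settings called 0 to 4 related genes higher. For day 14 minus day 7 the 3 calls became 6 with arrays centred, 5 without the lowest tertile of genes and 1 without genes below the median, and the 7 related genes became 4 with that filter and 4 with Xist as a covariate. Leaving out single arrays gave 0 to 6 members and 0 to 11 related genes. Related genes called between genotypes numbered 1 with arrays centred, with single probe sets, and with a prior that was robust or followed intensity (Foxj1 in each), and 0 to 2 without the arrays of 1 age. Between days 7 and 1 they numbered 0 to 1 without single arrays. The slope without the 2 high-Xist arrays, and the day 7 comparisons without them, were not run because no residual degree of freedom remains.

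Values that were never called turned sign in places, and the cause was not tested. For FoxJ1 null minus wildtype, quantile normalization gave Cep152 0.00967, Stil 0.00967 and Pcm1 0.0308, and centring gave Cep152 0.00434 and Pcm1 0.00588. Without the 2 high-Xist arrays Plk4 was -0.0459, Cep152 0.14 and Sass6 -0.0663. Without the arrays of 1 age Deup1 ran from -0.36 to 0.16, Cep152 from -0.0813 to 0.0699, Stil from -0.0849 to 0.0105 and Pcm1 from -0.0612 to 0.0197. For day 14 minus day 1 without single arrays Cep63 ran from -0.20 to 0.13 and Cetn2 from -0.0101 to 0.175. For day 7 minus day 1 Deup1 ran from -0.46 to 0.52, Plk4 from -0.22 to 0.27, Cep63 from -0.30 to 0.0288, Sass6 from -0.0651 to 0.061 and Pcm1 from -0.0394 to 0.0661. For day 14 minus day 7 Cep152 ran from -0.10 to 0.0606 and Cep63 from -0.0686 to 0.26, Cep152 was 0.0438 with Xist as a covariate, and Cep164 was 0.0124 with the mean of all probe sets.

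Slopes per day without single arrays ran from -0.0315 to 0.19 for Deup1, -0.0849 to 0.11 for Plk4, -0.0139 to 0.0677 for Cep152, -0.0272 to 0.0541 for Sass6, -0.0047 to 0.0382 for Stil, -0.0117 to 0.0424 for Cetn2, -0.0488 to 0.0397 for Pcm1, -0.0024 to 0.0079 for Cep164 and -0.0285 to 0.0409 for Nek2. Cep164 had -0.0012 with quantile normalization, -0.0037 with centring and -3.8e-04 with Xist as a covariate, and Plk4 had -0.0032 with centring and -0.0269 with Xist as a covariate.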
